A study of Bos taurus with 8 samples.

Results

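The genes described here encode collagens, laminins, matrix metalloproteinases (MMPs), tissue inhibitors of metalloproteinases (TIMPs) and ADAMTS proteases (secreted metalloproteases with thrombospondin motifs). They were taken by name alone, as every noncontrol probe whose accession maps to a symbol built as COL number A number, LAMA, LAMB or LAMC number, MMP number, TIMP number or ADAMTS number. The rule found 168 of the 43653 noncontrol probes on the array, for 59 genes, and 20 of these genes were measured among 15137 genes in all. RNA came from peripheral blood mononuclear cells, the lymphocytes and monocytes of blood, of lame crossbred cows (4 arrays), normal crossbred cows (2 arrays) and normal cows of the Tharparkar, an Indian zebu breed (2 arrays). It was labelled with Cy3 and hybridised to 1-colour Agilent bovine arrays. The labels give no age, farm, lesion or treatment, and they do not say whether an RNA sample was 1 cow or a pool. Each RNA sample was labelled and run in technical duplicate, per the labels.

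Collagens are triple-helical proteins that form fibrils, beaded filaments or the sheet-like network of basement membranes, and laminins are the three-chain proteins that assemble the other network of those membranes. MMPs and ADAMTS enzymes are zinc proteases that cut matrix proteins and also cytokines and receptors, and TIMPs block them by occupying the catalytic site. In tissues most of this matrix is made by fibroblasts, endothelium and epithelium. Blood leukocytes are known as a source of a few of the proteases and inhibitors, MMP9 and TIMP1 among them.

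Values are log2 of the background-subtracted signal minus the 75th percentile of the array's noncontrol probes, so 0 is the brightness of that percentile. They compare a probe between arrays and not one probe with another. By titles and correlations over genes, the arrays looked like duplicates of 4 RNA samples, namely lame R1 (0.995 between R1_1 and R1_2), lame R2 (0.981 between R2_1 and R2_2), and 1 of each normal group (0.995 to 0.997), against 0.951 to 0.970 between lame R1 and lame R2. A normal group is thus probably 1 RNA sample, and breed, health and individual cow cannot be told apart in it. Adjusted p-values come from limma over the 15137 genes with arrays as observations. They reflect how arrays vary, duplicates included, and overstate the evidence about cows. The adjusted p with duplicates averaged stands beside the main values. That fit has 1 residual degree of freedom and gives all genes the same variance, so its calls go by the size of the difference. Lame R2_2 stood apart as the brightest array: the median raw brightness of its negative control spots was 107 (53 to 65 elsewhere), and 70.9% of all its probes were well above background (52.8% to 61.5% elsewhere).

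Most of these genes were at or below background in blood mononuclear cells. A probe counted as measured when 1 group or more had it marked well above background on all of that group's arrays, which held for 34 of the 168 probes (20.2%), against 56.5% of all noncontrol probes. Of the families, the TIMPs were seen best, with 7 of 10 probes (70.0%) and 3 of 4 genes measured. By share of probes measured, the laminins came next (4 of 15 probes, 26.7%, and 3 of 5 genes), then the MMPs (6 of 35 probes, 17.1%, and 3 of 14 genes), the collagens (13 of 79 probes, 16.5%, and 7 of 21 genes) and the ADAMTS enzymes (4 of 29 probes, 13.8%, and 4 of 15 genes). Per array, the share of the 168 probes well above background was 18.5%, 19.6%, 29.8% and 49.4% on lame R1_1, R1_2, R2_1 and R2_2, 17.9% and 20.2% on the normal crossbred arrays, and 16.1% and 17.9% on the Tharparkar arrays. Lame R2_2 thus stood far above its own duplicate, and the part of its higher background in these detections was not tested.

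**Figure D1:**
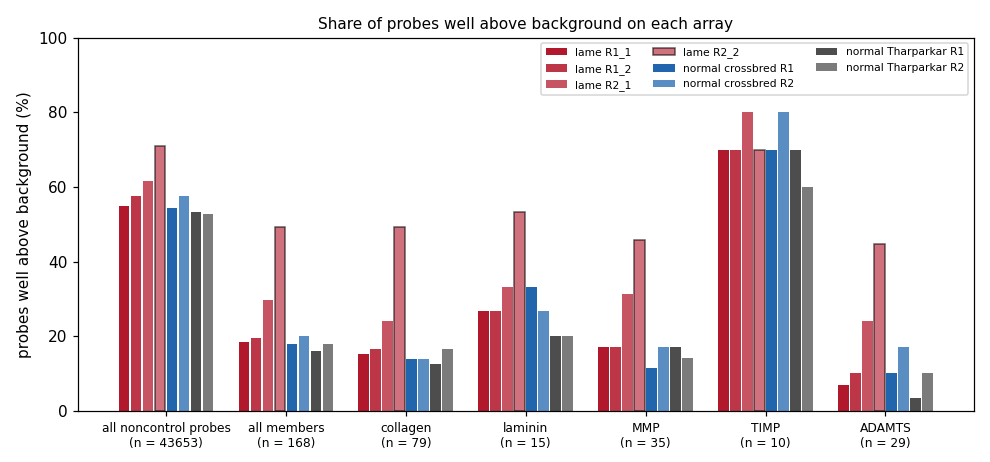
Share of probes (percent, from 0) that were well above background on each of the 8 arrays, for all noncontrol probes, all matrix probes and each family, with the number of probes below each set. Lame R2_2 (outlined) is highest in all of these sets but the TIMPs, where it has 70.0%; all matrix probes lie between 16.1% and 29.8% on the other arrays.

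The other 39 genes failed the filter. Of these, 13 had no probe well above background on any array: COL12A1, COL13A1, COL17A1, LAMB1, MMP7, MMP12, MMP20, MMP27, TIMP4, ADAMTS14, ADAMTS18, ADAMTS19 and ADAMTS20. That is 13 of the 59 genes, a share similar to the 5818 of 26667 genes over the whole array. A further 13 were detected on 1 array, 12 of them on lame R2_2 (COL1A2, COL4A3, COL15A1, COL26A1, LAMB3, MMP2, MMP16, MMP23, ADAMTS3, ADAMTS5, ADAMTS8 and ADAMTS12), and COL10A1 on Tharparkar R2. Another 10 had a best probe seen on 2 arrays (COL2A1, COL5A3, COL6A2, COL8A1, COL8A2, COL11A1, MMP13, MMP14, ADAMTS6 and ADAMTS9), ADAMTS2 and MMP1 on 4, and MMP15 on 5. COL1A2, the partner chain of COL1A1 in type I collagen, had 6 probes, of which 3 were detected, each on lame R2_2. MMP1, the interstitial collagenase, and ADAMTS2, which trims procollagen, were seen on 3 lame arrays and 1 normal crossbred array each, and on no Tharparkar array. In the RefSeq gene order 7 of the MMP genes on the array lie in 1 run of neighbours (MMP7, MMP20, MMP27, MMP1, MMP3, MMP12 and MMP13), and of their 15 probes only probes of MMP3 passed. MMP8, MMP25, ADAMTS13, ADAMTS17, COL4A2, COL6A3, COL9A2 and LAMA5 were not analysed here.

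Among the 20 measured genes, lame crossbred cows had 2 higher (COL6A1 and MMP19) and 4 lower (COL18A1, MMP9, MMP3 and LAMB2) than normal crossbred cows, at an adjusted p under 0.05. That is 6 of 20, or 30%, against 9.61% of all genes tested (3.28% higher and 6.33% lower). Against Tharparkar cows, 1 was higher (COL18A1) and 3 were lower (ADAMTS1, MMP9 and COL6A1), which is 20.0% against 23.3% of all genes (12.6% higher and 10.7% lower), a share near the background. Between the normal groups, 4 were higher in crossbred cows (COL18A1, MMP3, TIMP3 and LAMB2) and 4 lower (COL6A1, ADAMTS1, MMP19 and TIMP2), 40.0% against 18.7% (11.8% higher and 6.88% lower). The last 2 counts include ADAMTS1, whose probe passed the filter only through the Tharparkar arrays, where it is high. That split was 2 higher and 5 lower with normexp background correction, and with quantile normalization the split of the first comparison was 2 and 2. In a fit of every probe on its own, 5 of the 34 kept probes were higher and 4 lower in the first comparison (7.33% of all probes called), 3 and 3 in the second (21.6%), and 7 and 4 in the last (17.7%). The 3 comparisons share arrays, so their calls are not independent of each other. With duplicates averaged, the counts were 1 (COL18A1), 2 (COL4A1 and ADAMTS1) and 3 (COL18A1, COL4A1 and COL6A1). Over all genes 1.1%, 3.52% and 2.48% were then called. COL4A1, like ADAMTS1, passed the filter only through the Tharparkar arrays, where it is high. The median log2 difference of the 20 genes was 0.21, 0.35 and -0.25 in the 3 comparisons, against -0.04, -0.01 and 0.01 over all genes. The sign of the first turned with quantile normalization (-0.09, against -0.08 over all genes), with probes well above background on all arrays (-0.09), with array weights (-0.13), with lame R1 alone (-0.15) and without normal crossbred R1 (-0.04). That of the second turned with normexp background correction (-0.29, against -0.16), and that of the third with probes well above background on all arrays (0.13) and without Tharparkar R2 (0.10). Arrays of the groups did not overlap for 10, 12 and 17 of the 20, against 38.8%, 49.9% and 81.9% of all genes. In bulk RNA, fewer cells of a type and less RNA per cell cannot be told apart.

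**Figure D2:**
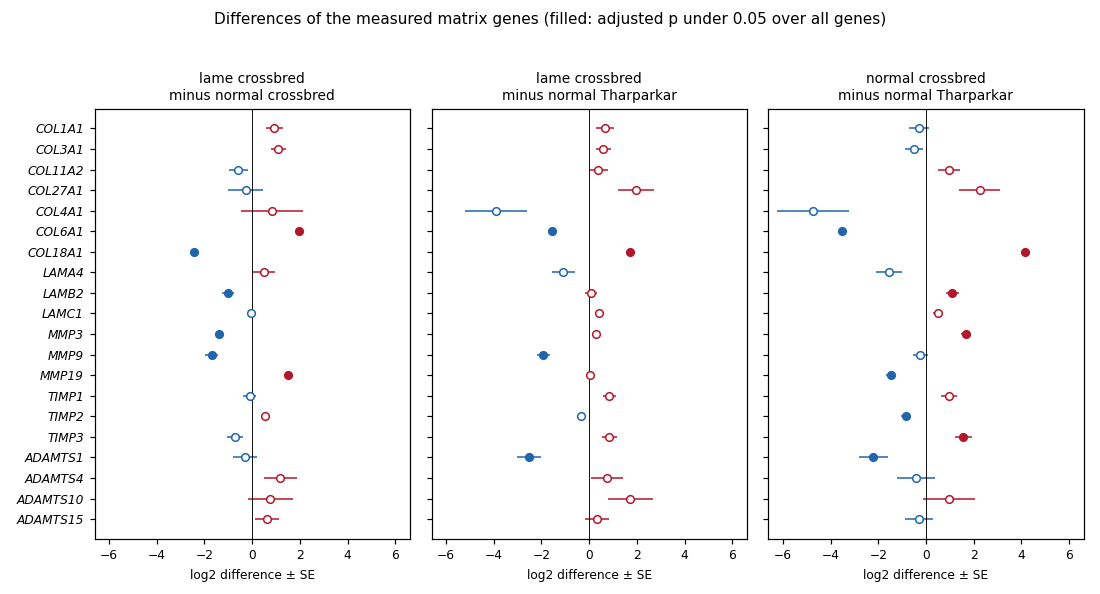
Log2 difference (first group minus second, with its SE from limma) of the 20 measured genes in each comparison; filled points have an adjusted p under 0.05 over all genes. COL18A1 and COL6A1 are filled in all 3 panels with opposite signs, and COL4A1 has the widest bars.

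COL18A1 encodes the core of a basement membrane collagen from whose end the angiogenesis inhibitor endostatin is cut. Its brightest probe read 0.83, 0.58, 0.64 and 0.62 on lame R1_1, R1_2, R2_1 and R2_2, 3.15 and 3.04 on the normal crossbred arrays, and -1.0 and -1.12 on the Tharparkar arrays. The 3 groups were fully separate, with lame cows between the normal groups, and both lame RNA samples lay close together (means 0.71 and 0.63). The gene was 5.38-fold lower in lame than in normal crossbred cows (log2 difference -2.43, SE 0.14, adjusted p = 0.000266, and 0.0324 with duplicates averaged). It was 3.31-fold higher in lame than in Tharparkar cows (1.73, SE 0.14, adjusted p = 0.000393, and 0.184 with duplicates averaged), and 17.8-fold higher in normal crossbred than in Tharparkar cows (4.15, SE 0.16, adjusted p = 5.7e-05, and 2.15e-05 with duplicates averaged).

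The 4 probes of COL18A1 did not all follow that order. A second probe, A_73_P048531, gave log2 differences of -1.92, 2.27 and 4.19 in the same 3 comparisons, and it was not well above background on either Tharparkar array. Another, A_73_P412566, gave -1.04, 0.91 and 1.95, the last of them called in the fit of every probe (adjusted p = 0.027). The fourth, A_73_P097096, was well above background on all arrays and flat between the normal groups (-0.11), with 0.47 for lame against normal crossbred cows. The difference in COL18A1 is thus a difference of some of its probes, and which transcripts each probe detects was not tested.

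COL6A1 encodes the first chain of collagen VI, which forms beaded filaments around cells. Its brightest probe read -0.30, -0.43, -0.56 and -0.46 on the lame arrays, -2.34 and -2.47 on the normal crossbred arrays, and 1.12 on both Tharparkar arrays. Lame cows again lay between the normal groups, in the order opposite to that of COL18A1. The gene was 3.91-fold higher in lame than in normal crossbred cows (1.97, SE 0.14, adjusted p = 0.000549, and 0.167 with duplicates averaged) and 2.95-fold lower in lame than in Tharparkar cows (-1.56, SE 0.14, adjusted p = 0.000526, and 0.294). It was lower in normal crossbred than in Tharparkar cows (-3.53, SE 0.16, adjusted p = 6.61e-05, and 0.000748). The second probe, A_73_119769, was also above the normal crossbred arrays in lame cows (1.19, adjusted p = 0.0294 in the fit of every probe), but it read 0.60 against Tharparkar cows, where the first read -1.56. Between the normal groups it gave -0.59 and was not called (adjusted p = 0.185 in that fit), where the first probe gave -3.53. With the mean of both probes the lower value in lame than in Tharparkar cows was -0.48 and no longer called (adjusted p = 0.0818). COL6A1 and COL18A1 lie on the same chromosome with 3 protein-coding genes between them, and COL6A2, next to COL6A1, was not measured.

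**Figure D3:**
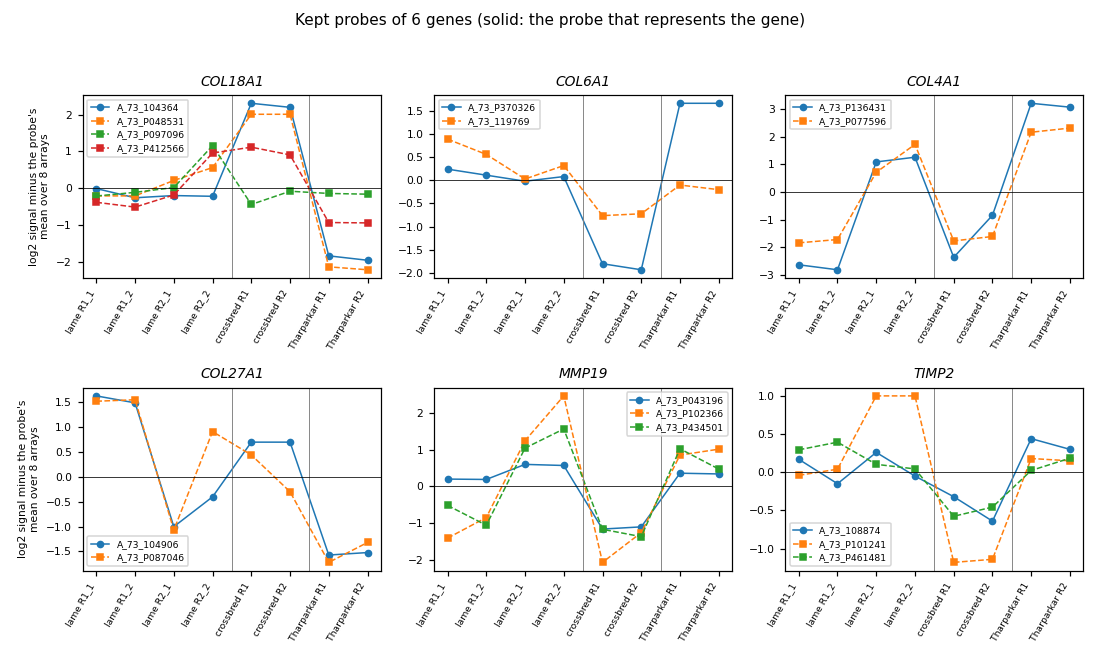
Log2 signal of each kept probe minus that probe's mean over the 8 arrays, for COL18A1, COL6A1, COL4A1, COL27A1, MMP19 and TIMP2; the solid line is the probe that represents the gene. Probes of COL4A1 move together, 1 of the 4 COL18A1 probes stays flat between the normal groups, and the 2 COL6A1 probes part on the Tharparkar arrays.

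COL4A1, a chain of the collagen IV network of basement membranes, split the lame group. Its brightest probe read -6.62 and -6.80 on the lame R1 arrays and -2.90 and -2.73 on the lame R2 arrays, -6.35 and -4.83 on the normal crossbred arrays, and -0.78 and -0.92 on the Tharparkar arrays. The signal was well above background on both lame R2 arrays and both Tharparkar arrays and on none of the others. Every Tharparkar array was above every crossbred array, and the mean of lame R2 was -2.81 and that of lame R1 -6.71. The second probe showed the same split (-6.32 and -6.20 on lame R1, -3.77 and -2.76 on lame R2, against -6.25 and -6.09 on the normal crossbred arrays and -2.32 and -2.17 on the Tharparkar arrays). Normal crossbred cows were at least 14.2-fold lower than Tharparkar cows, a bound that sets the undetected group at the lowest signal of any detected probe or at its own, whichever is higher. The fit, whose spread for this gene includes the split between the lame samples, did not call it (adjusted p = 0.0678), nor the difference of -3.91 between lame and Tharparkar cows (SE 1.30, adjusted p = 0.068). Without lame R2_2 both were called (adjusted p = 0.0377 and 0.0316), as they were with duplicates averaged (4.5e-07 and 1.56e-06). With RNA sample as a random block neither was called (adjusted p = 0.385 for normal crossbred and 0.351 for lame against Tharparkar cows). COL4A1 passed the filter only through the Tharparkar arrays, where it is high. Its bound and calls are thus a description and not support for a difference.

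COL27A1, a fibrillar collagen known from cartilage, split the lame group the other way. It read -1.48 and -1.62 on lame R1 and -4.11 and -3.51 on lame R2, -2.41 on both normal crossbred arrays, and -4.68 and -4.63 on the Tharparkar arrays, where it was not well above background. It was well above background on 3 of the 4 lame arrays. Lame R1 was above and lame R2 below the normal crossbred arrays, so the mean difference of -0.27 (SE 0.74, adjusted p = 0.866) describes neither. Normal crossbred cows were at least 3.71-fold higher than Tharparkar cows (adjusted p = 0.113, not called), and the gap between lame and Tharparkar cows was not called either (adjusted p = 0.0976). COL27A1 passed the filter only through the normal crossbred arrays, so the bound is a description and not support for a difference. The second COL27A1 probe gave -2.12 and -2.09 on lame R1, -4.71 and -2.73 on lame R2, -3.20 and -3.94 on the normal crossbred arrays, and -5.36 and -4.96 on the Tharparkar arrays.

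None of the chains of the classical fibrils was called. COL1A1, of type I collagen, read -2.34, -2.27, -2.66 and -1.32 on the lame arrays, -3.36 and -2.81 on the normal crossbred arrays, and -2.93 and -2.68 on the Tharparkar arrays. All lame arrays were above all normal arrays, but the closest pairs were lame R2_1 with Tharparkar R2 and with normal crossbred R2. The differences were 0.93 (SE 0.37, adjusted p = 0.162) against normal crossbred and 0.66 (SE 0.37, adjusted p = 0.234) against Tharparkar cows. The other COL1A1 probes failed the filter, and none of them was well above background on a normal array. COL3A1, of the type III collagen found with it, read -1.92, -2.29, -2.67 and -1.45 on the lame arrays, -3.18 and -3.17 on the normal crossbred arrays, and -2.48 and -2.87 on the Tharparkar arrays. It lay 1.09 above normal crossbred cows (SE 0.32, adjusted p = 0.0827), without overlap, and 0.59 above Tharparkar cows (SE 0.32, adjusted p = 0.226), with overlap. These COL3A1 values rest on a single probe, and no other probe of the gene was well above background on any array. COL11A2, a minor fibrillar collagen of cartilage, read -2.78, -2.94, -2.76 and -1.49 on the lame arrays, -1.89 and -1.90 on the normal crossbred arrays, and -2.70 and -3.04 on the Tharparkar arrays.

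Lame R2_2 carried the highest value of all 8 arrays for 6 of the 20 genes: COL1A1, COL3A1, COL11A2, ADAMTS4, ADAMTS10 and ADAMTS15. Without it, COL1A1 was 0.66 (adjusted p = 0.107) and COL3A1 0.88 (adjusted p = 0.0654) above normal crossbred cows. COL11A2 was then called lower in lame than in normal crossbred cows (-0.93, adjusted p = 0.0155) and higher in normal crossbred than in Tharparkar cows (0.97, adjusted p = 0.00914). With all arrays these differences were -0.59 (adjusted p = 0.403) and 0.97 (adjusted p = 0.188). The part of this array's background in these values was not tested.

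**Figure D4:**
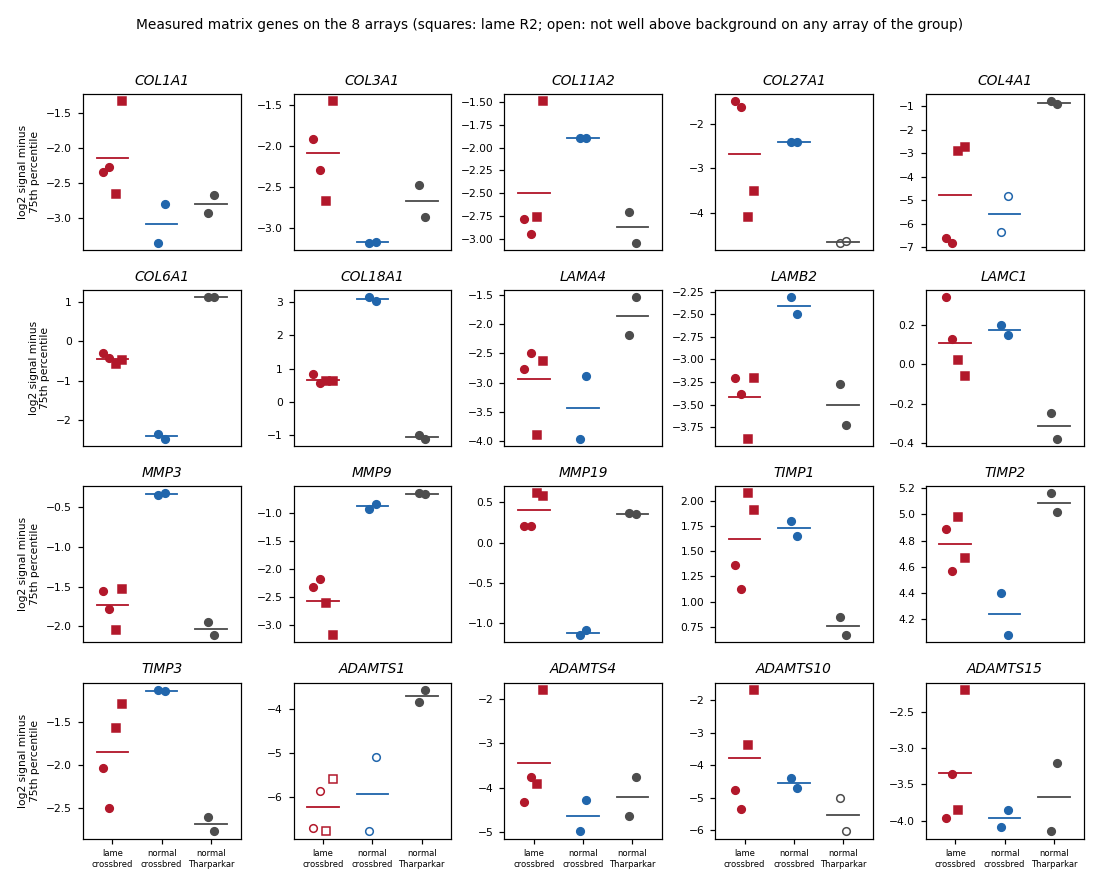
Log2 signal minus the array's 75th percentile for the 20 measured genes on each array, with lame, normal crossbred and normal Tharparkar arrays from left to right; circles in the lame group are R1 and squares R2, open points mark groups with no array well above background, and lines are group means. COL18A1, COL6A1 and MMP9 have lame groups apart from both normal groups, whereas COL4A1 and COL27A1 part by lame RNA sample.

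Of the laminin chains, LAMC1, the gamma chain shared by most laminins, read 0.34, 0.13, 0.02 and -0.06 on the lame arrays, 0.20 and 0.15 on the normal crossbred arrays, and -0.25 and -0.38 on the Tharparkar arrays. Both crossbred groups overlapped and lay above the Tharparkar arrays, by 0.42 for lame (SE 0.16, adjusted p = 0.0934) and 0.49 for normal cows (SE 0.18, adjusted p = 0.101), neither called. LAMB2, a beta chain of basement membranes of muscle, nerve and kidney, read -3.21, -3.38, -3.88 and -3.21 on the lame arrays, -2.31 and -2.50 on the normal crossbred arrays, and -3.27 and -3.73 on the Tharparkar arrays. Normal crossbred cows stood above the other groups, which overlapped.

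LAMB2 was 2.02-fold lower in lame than in normal crossbred cows (-1.02, SE 0.24, adjusted p = 0.0409, and 1.0 with duplicates averaged). It was 2.14-fold higher in normal crossbred than in Tharparkar cows (1.1, SE 0.28, adjusted p = 0.0331, and 0.954). Both calls were lost with slide as a block (adjusted p = 0.0765 and 0.0602). The first was also lost without lame R1_1, without lame R1_2 and without any 1 of the 4 normal arrays (adjusted p between 0.0546 and 0.324), and the second without any 1 of the 4 normal arrays (between 0.0818 and 0.199). With normexp background correction the difference between the normal groups was -0.03. The second kept LAMB2 probe was called in neither comparison (-0.57 and 1.0, adjusted p = 0.602 and 0.36 in the fit of every probe). LAMA4, an alpha chain of vessel walls, read -2.76, -2.50, -3.89 and -2.63 on the lame arrays, -3.96 and -2.89 on the normal crossbred arrays, and -2.18 and -1.54 on the Tharparkar arrays. The Tharparkar arrays were above all others, but the differences of -1.08 for lame cows (SE 0.47, adjusted p = 0.136) and -1.56 for normal crossbred cows (SE 0.54, adjusted p = 0.0851) were not called, although slide as a block brought the second to an adjusted p of 0.0387.

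Of 11 fibroblast and mesenchymal markers on the array 5 were measured, whereas FAP, LUM, PDGFRB, PDPN, TCF21 and THY1 were not. Their summed linear level was 0.867 to 1.71 on the lame, 0.834 to 0.873 on the normal crossbred and 1.54 to 1.55 on the Tharparkar arrays. The growth factor receptor PDGFRA was called lower in lame (-0.95, adjusted p = 0.0374) and in normal crossbred (-1.16, adjusted p = 0.0353) than in Tharparkar cows. The brightest probes of COL6A1 and COL4A1 differed in that direction. No other of these markers was called in either comparison (20.0% called in each, against 23.3% and 18.7% of all genes). ACTA2, DPT and DCN had the sign of PDGFRA in both, whereas TAGLN read the other way (1.15 and 0.36). Of 8 endothelial markers 2 were measured, without CDH5, EMCN, ESAM, KDR, TEK and TIE1, and their sums were 1.39 to 1.90, 1.63 to 1.71 and 1.23 to 1.27. Platelet markers, 5 of 5 on the array, summed to 18.2 to 24.0 on the lame, 16.6 to 17.6 on the normal crossbred and 10.5 to 11.1 on the Tharparkar arrays. The part of these cells in the collagen and laminin values was not tested.

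Among the proteases, MMP9 was low in both lame RNA samples. MMP9 is gelatinase B, which cuts denatured collagen and collagen IV and is stored in neutrophil granules. It read -2.33, -2.19, -2.61 and -3.18 on the lame arrays, -0.93 and -0.85 on the normal crossbred arrays, and -0.66 and -0.67 on the Tharparkar arrays. Every lame array was below every normal array, and the normal groups lay close together (-0.23, SE 0.31, adjusted p = 0.659). The gene was 3.22-fold lower in lame than in normal crossbred cows (-1.69, SE 0.27, adjusted p = 0.0112, and 0.37 with duplicates averaged) and 3.77-fold lower than in Tharparkar cows (-1.92, SE 0.27, adjusted p = 0.00341, and 0.0985). The first call was lost without normal crossbred R1 (adjusted p = 0.121) or R2 (0.125), each of which leaves 1 array in that group, and with quantile normalization (0.205). Quantile normalization also ended the second call (adjusted p = 0.123). The MMP9 result rests on a single probe, and no other probe of the gene was well above background on any array.

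Most markers of granulocytes, a cell that a mononuclear preparation is meant to leave out, were lower in the lame group, as MMP9 was. All 8 that are on the array were measured (CXCR1, CXCR2, TGM3, CATHL1, CATHL2, LTF, MPO and ELANE). Their summed linear level was 5.06 to 5.65 on the lame, 38.4 to 39.5 on the normal crossbred and 73.8 to 76.0 on the Tharparkar arrays. Of the 8, 6 were called lower in lame than in normal crossbred cows, where 9.61% of all genes were called in either direction. CXCR2, a chemokine receptor, differed there by -3.33 (SE 0.34, adjusted p = 0.00195). Likewise 6 of the 8 were called lower in lame than in Tharparkar cows (CXCR2 -5.54, SE 0.34, adjusted p = 0.000158), where 23.3% of all genes were called. Between the normal groups 2 were lower and 1, MPO (2.07), higher in crossbred cows (37.5% called, against 18.7% of all genes), while MMP9 did not pass the test there. The part of granulocytes in the MMP9 result was not tested.

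The brightest probes of MMP3 and MMP19 set the normal crossbred arrays apart. MMP3, stromelysin-1, which cuts many matrix proteins and activates other MMPs, read -1.55, -1.78, -2.05 and -1.53 on the lame arrays, -0.35 and -0.33 on the normal crossbred arrays, and -1.95 and -2.11 on the Tharparkar arrays. Normal crossbred cows were above all others, and lame and Tharparkar arrays overlapped (0.30, SE 0.18, adjusted p = 0.274). MMP3 was 2.62-fold lower in lame than in normal crossbred cows (-1.39, SE 0.18, adjusted p = 0.00548, and 0.74 with duplicates averaged; 0.0847 and 0.0796 without normal crossbred R1 or R2). It was 3.22-fold higher in normal crossbred than in Tharparkar cows (1.69, SE 0.21, adjusted p = 0.00268, and 0.408). The second MMP3 probe had the same sign in each comparison (-0.73, 1.60 and 2.33) but did not set the normal crossbred arrays apart. For lame against normal crossbred cows its arrays overlapped and it was not called (adjusted p = 0.319 in the fit of every probe). It was called higher in lame than in Tharparkar cows (adjusted p = 0.03 in that fit). It was not well above background on either Tharparkar array.

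MMP19, a protease known from monocytes and macrophages, had the reverse pattern. It read 0.21, 0.20, 0.61 and 0.58 on the lame arrays, -1.15 and -1.09 on the normal crossbred arrays, and 0.37 and 0.35 on the Tharparkar arrays. The Tharparkar arrays lay inside the range of the lame arrays, between lame R1 and lame R2. MMP19 was 2.87-fold higher in lame than in normal crossbred cows (1.52, SE 0.17, adjusted p = 0.0031, and 0.561 with duplicates averaged; 0.061 and 0.0517 without normal crossbred R1 or R2). It was 2.79-fold lower in normal crossbred than in Tharparkar cows (-1.48, SE 0.20, adjusted p = 0.0036, and 0.595). Its other probes split the lame group further. A_73_P434501 read -3.97 and -4.51 on lame R1 and -2.41 and -1.89 on lame R2, -4.62 and -4.82 on the normal crossbred arrays, and -2.43 and -2.98 on the Tharparkar arrays. Both other probes missed the threshold in all comparisons, and with the mean of the 3 probes MMP19 was not called either (1.69, adjusted p = 0.133, for lame against normal crossbred cows, and -2.03, adjusted p = 0.0825, between the normal groups).

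Of 9 monocyte markers, all measured, 4 were called higher and 1, CD14, lower in lame than in normal crossbred cows, while MMP19 rose there. That is 55.6% called, against 9.61% of all genes. Their summed level was 63.0 to 90.5 on the lame, 38.3 to 38.6 on the normal crossbred and 53.1 to 56.5 on the Tharparkar arrays. The complement genes C1QA (1.32, SE 0.13) and C1QB (1.55, SE 0.15) were among those called higher. Both were also lower in normal crossbred than in Tharparkar cows (-0.80 and -0.66), as MMP19 was. No other monocyte marker was called between the normal groups (22.2% called, against 18.7% of all genes), and CD14 read -0.06 and CD68 0.01. C1QA (0.53) and C1QB (0.89) were also called higher in lame than in Tharparkar cows, where MMP19 read 0.04. The part of monocytes in the MMP19 result was not tested.

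The inhibitors were the best-detected family, and none was called in either comparison of the lame group. At an unadjusted p under 0.05, limma put TIMP2 higher in lame than in normal crossbred cows. It put TIMP1 and TIMP3 higher in lame than in Tharparkar cows. Of the 20 measured genes, 5 were higher and 4 lower at that threshold in each of these comparisons. The share of all genes at that threshold is not given here, and 9.61% and 23.3% passed the adjusted one. The second kept probes of TIMP1 and TIMP3 were not called against Tharparkar cows (adjusted p = 0.138 and 0.25 in the fit of every probe). TIMP2, which inhibits MMPs and also helps to activate MMP2 at the cell surface, read 4.89, 4.57, 4.98 and 4.67 on the lame arrays, 4.40 and 4.08 on the normal crossbred arrays, and 5.16 and 5.02 on the Tharparkar arrays. On this brightest probe the lame arrays lay between the normal groups without overlap. TIMP2 was 1.80-fold lower in normal crossbred than in Tharparkar cows (-0.85, SE 0.20, adjusted p = 0.0278, and 1.0 with duplicates averaged), a call lost without any 1 of the 4 normal arrays (adjusted p between 0.0858 and 0.198). Against normal crossbred cows the lame group read 0.53 (SE 0.18, adjusted p = 0.107). The other TIMP2 probes read 1.66 and 0.73 there, and each was called in the fit of every probe (adjusted p = 0.033 and 0.0399). Between the normal groups neither was called (-1.33 and -0.62, adjusted p = 0.0598 and 0.0588 in that fit). For lame against Tharparkar cows they read 0.33 and 0.10, with overlap, where the brightest probe read -0.32.

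TIMP3, the inhibitor that stays bound to the matrix and also blocks ADAM17 and aggrecanases, read -2.04, -2.51, -1.57 and -1.29 on the lame arrays, -1.12 and -1.14 on the normal crossbred arrays, and -2.61 and -2.78 on the Tharparkar arrays. Lame cows again lay between the normal groups, at -0.72 (SE 0.32, adjusted p = 0.21) against normal crossbred and 0.84 (SE 0.32, adjusted p = 0.1) against Tharparkar cows. TIMP3 was 2.96-fold higher in normal crossbred than in Tharparkar cows (1.57, SE 0.37, adjusted p = 0.0266, and 0.519 with duplicates averaged), a call lost without any 1 of the 4 normal arrays (adjusted p between 0.116 and 0.145), with slide as a block (0.0502) and with normexp background correction (0.37, adjusted p = 0.422). The second kept TIMP3 probe had the same sign there but was not called (1.45, adjusted p = 0.143 in the fit of every probe). TIMP1 is the soluble inhibitor made by many leukocytes. It read 1.36, 1.13, 2.07 and 1.91 on the lame arrays and 1.80 and 1.65 on the normal crossbred arrays. On the Tharparkar arrays it read 0.85 and 0.67. Both crossbred groups overlapped and were above the Tharparkar arrays, by 0.85 (SE 0.28, adjusted p = 0.0644) for lame and 0.96 (SE 0.32, adjusted p = 0.0784) for normal cows, and neither was called.

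Of the families, the ADAMTS enzymes had the smallest share of probes measured (13.8%), and no probe of theirs was well above background on all arrays. ADAMTS1, an aggrecan- and versican-cutting protease, read -6.70, -5.87, -6.78 and -5.59 on the lame arrays, -6.77 and -5.09 on the normal crossbred arrays, and -3.86 and -3.57 on the Tharparkar arrays. The probe was well above background on the Tharparkar arrays alone, so its folds are bounds. It passed the filter only through the group in which it is high, so its calls, counted above, are a description and not support for a difference. It was at least 1.55-fold lower in lame (adjusted p = 0.0142, and 0.0087 with duplicates averaged) and at least 2.02-fold lower in normal crossbred than in Tharparkar cows (adjusted p = 0.0423, and 0.12). Without Tharparkar R1 or R2 the adjusted p was 0.0895 and 0.113 for lame, and 0.153 and 0.19 for normal crossbred cows. With RNA sample as a random block the adjusted p was 0.551 for lame and 0.744 for normal crossbred cows. The normal crossbred call was also lost without normal crossbred R1 (0.216), lame R1_1 (0.0522) or lame R1_2 (0.055). Of the 2 other ADAMTS1 probes neither was well above background on a Tharparkar array, and A_73_P373286 was on lame R2_2.

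The other ADAMTS genes were not called. ADAMTS10, which works with fibrillin microfibrils, read -4.77, -5.33, -3.39 and -1.68 on the lame arrays, -4.39 and -4.69 on the normal crossbred arrays, and -5.01 and -6.03 on the Tharparkar arrays, where it was not well above background. Its lame R2 arrays were above and its lame R1 arrays below the normal crossbred arrays. The gap between the normal groups gave no bound above 1-fold and was not called (adjusted p = 0.581). ADAMTS10 passed the filter only through the normal crossbred arrays. ADAMTS4, an aggrecanase, read -4.32, -3.76, -3.91 and -1.79 on the lame arrays, -4.98 and -4.27 on the normal crossbred arrays, and -4.63 and -3.76 on the Tharparkar arrays. It lay 1.18 above normal crossbred cows in the lame group (SE 0.68, adjusted p = 0.333), and 0.63 (adjusted p = 0.285) without lame R2_2. The ADAMTS4 probe passed the filter only through the lame arrays, where its mean is highest. These values are thus a description and not support for a difference. ADAMTS15 ranged from -3.97 to -2.19 on the lame, from -4.09 to -3.85 on the normal crossbred and from -4.15 to -3.20 on the Tharparkar arrays.

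Of the 8 genes called between the normal groups, 6 had a lame mean between the means of both, by the probe representing each. These were COL18A1, COL6A1, LAMB2, MMP3, TIMP2 and TIMP3. Over the whole array, 70.9% of the 2830 genes called between those groups had such a mean. Some other kept probes of COL18A1, COL6A1 and TIMP2 put the lame mean above both normal groups. MMP19 lay just above the Tharparkar mean (0.40 against 0.36), and ADAMTS1 below both, where it was not detected. In the 10 calls that involve the lame group, lame R1 and lame R2 each moved in the called direction. Over the 20 genes the median size of the gap between lame R1 and lame R2 was 0.51, against 0.50 over all genes, with COL4A1 (-3.90), ADAMTS10 (-2.52) and COL27A1 (2.26) the widest. The 8 arrays lay on 2 slides that each held all groups. All 18 calls had the same sign within both slides, and 15 remained with slide as a block. The calls were made on these same arrays, so shared signs of slides or lame RNA samples are a description and not support.

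Of 24 genes for collagen processing and crosslinking, 20 were on the array and 12 measured. Of these, 1, 1 and 2 were called in the 3 comparisons (8.33%, 8.33% and 16.7%, against 9.61%, 23.3% and 18.7% of all genes). LOXL3, a lysyl oxidase, was lower in lame than in normal crossbred cows (-0.99, SE 0.18, adjusted p = 0.0173) and higher in normal crossbred than in Tharparkar cows (1.01, SE 0.21, adjusted p = 0.0159). P3H1, a prolyl hydroxylase of the endoplasmic reticulum, was higher in lame (1.08, SE 0.21, adjusted p = 0.0116) and normal crossbred (1.37, SE 0.24, adjusted p = 0.00959) than in Tharparkar cows. No other gene of this list was called.

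Of 28 matrix partners 10 were measured, and 4 of the 10 were called in each comparison (40.0%, against 9.61%, 23.3% and 18.7% of all genes). Against normal crossbred cows, lame cows had 3 higher, fibronectin FN1 (0.90, SE 0.14, adjusted p = 0.0105), the proteoglycan BGN (1.53, SE 0.29, adjusted p = 0.0202) and EMILIN2 (1.01, SE 0.22, adjusted p = 0.0315). They had 1 lower, NID2, which links laminin to collagen IV (-1.51, SE 0.20, adjusted p = 0.00541). Against Tharparkar cows FN1 (1.26), TNXB (1.76) and THBS3 (1.73) were higher and THBS1 (-1.46) lower. Between the normal groups, TNXB (2.09) and NID2 (1.66) were higher and BGN (-1.53) and THBS1 (-1.43) lower in crossbred cows. NID2 and BGN thus followed the pattern of the brightest MMP3 and MMP19 probes, in which the normal crossbred arrays stood apart.

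Of the regulators and activators of matrix proteases, the urokinase PLAU (-1.42, SE 0.24, adjusted p = 0.0141) and its receptor PLAUR (-2.91, SE 0.35, adjusted p = 0.00388) were lower in lame than in normal crossbred cows. PLAU (-2.23, SE 0.24, adjusted p = 0.00124), PLAUR (-4.42, SE 0.35, adjusted p = 0.000381) and BSG, an inducer of MMPs (-0.72, SE 0.13, adjusted p = 0.00934), were lower in lame than in Tharparkar cows, and the broad protease inhibitor A2M was higher (3.38, SE 0.34, adjusted p = 0.000962). A2M was likewise higher in normal crossbred than in Tharparkar cows (3.53, SE 0.40, adjusted p = 0.00176), and PLAUR lower (-1.52, SE 0.41, adjusted p = 0.0403). PLAUR and the summed granulocyte level had the same order of groups, lowest in lame and highest in Tharparkar cows, and the part of granulocytes in it was not tested.

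Of 17 collagen and laminin receptors 10 were measured. ITGA10, a collagen-binding integrin chain, was higher in lame than in Tharparkar cows (1.23, SE 0.29, adjusted p = 0.0226), ITGA6, a laminin-binding chain, was higher in normal crossbred than in Tharparkar cows (1.99, SE 0.56, adjusted p = 0.0457), and none was called between lame and normal crossbred cows. Of 12 ADAM proteases, the membrane-bound relatives of ADAMTS enzymes, 3 were measured. ADAM15 was higher in lame than in normal crossbred cows (0.62, SE 0.14, adjusted p = 0.0387) and lower in normal crossbred than in Tharparkar cows (-1.0, SE 0.16, adjusted p = 0.00699).

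Markers of the labelled cells were present. All 6 T cell, 3 B cell and 5 NK markers on the array were measured. The summed T cell level was 84.2 to 108 on the lame, 140 to 150 on the normal crossbred and 80.1 to 80.5 on the Tharparkar arrays. The NK sums were 33.9 to 68.9, 114 to 125 and 45.3 to 49.4, and those of B cells 74.5 to 125, 118 to 121 and 130 to 148. T and NK cell sums were thus highest on the normal crossbred arrays, as were MMP3, LAMB2 and COL18A1, and their part in those values was not tested. Of 5 epithelial markers 3 were measured. EPCAM was lower in lame than in normal crossbred (-2.63, SE 0.26, adjusted p = 0.00165) and Tharparkar cows (-1.65, SE 0.26, adjusted p = 0.00511). The keratins KRT8 (0.74 and 0.39) and KRT19 (0.22 and -1.47) were called in neither comparison.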

How the data were processed

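Values started from the scanner files of 8 arrays. Their spot intensity was background-subtracted and detrended by the scanner software, per the file headers, which name Agilent Feature Extraction 12.0.3.1; the submitters' processing notes name 11.5.1.1. A second file deposited by the authors holds log2 values of unstated scale and centring, which matched these values minus each probe's median and served as an alternative; its column medians ran from -0.13 to 0.88. Here spots were averaged per probe, log2 was taken after division by the array's 75th percentile, and control spots and 35 outlier probes were left out. No spot was saturated (0 spots). Probes were named by accession through a RefSeq table of assembly ARS-UCD2.0 (27054 matched, 16599 did not), used for names and neighbours only. A gene was its kept probe with the highest mean. Groups were compared in 1 fit with limma 3.58.1 (R 4.3.3; lmFit and eBayes, 2-sided, 5 residual degrees of freedom, no covariates), with Benjamini-Hochberg adjustment over 15137 genes and a call under 0.05. The fit was tested on simulated data.

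Named were all called and all bounded genes, genes whose probes disagreed in sign with 1 called, and a fixed list. The genes and lists were chosen with earlier results of these data known. Alternatives were normexp (offset 50, on median spot and background signals, as mean signals were not used), quantile normalization, the deposited table, other filters and probe rules, blocks for slide and for RNA sample, averaged duplicates, array weights, either lame RNA sample alone, and leaving out each array. The last number in a title marks the slide, so the replicate block is the slide; same-slide deviations correlated at 0.033 to 0.343 over genes, so a shared slide was not treated as pairing cows. Some genes are not reported here.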

Additional observations from a re-analysis of the deposited data

Results flagged for a closer look

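Among the 4 lame arrays, COL11A2 on lame R2_2 stood apart from the others: its gap to the nearest array was 1.27 on the log2 scale, or 0.875 of the group's whole range, above the critical value of Dixon's test for 4 samples. It was 1 of 20 genes examined in this way, and chance marks about 1 in 20.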

How the results depend on the processing

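The 18 called differences kept their sign under every alternative tried, except LAMB2 between the normal groups, which read -0.03 with normexp background correction. The probes that represent COL18A1 and COL6A1 kept their calls between the normal groups under all alternatives run, whereas other probes of these genes, A_73_P097096 (-0.11, adjusted p = 0.891) and A_73_119769 (-0.59, adjusted p = 0.185), were not called there. With the authors' deposited table all 18 calls held. ADAMTS1 could not be fitted when probes had to be well above background on all arrays. Treating RNA samples as the unit cost most of them: 4 held with duplicates averaged and 3 with RNA sample as a random block (estimated correlation 0.820).

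Counts of higher and lower genes are given for lame against normal crossbred (2 and 4), lame against Tharparkar (1 and 3) and normal crossbred against Tharparkar cows (4 and 4). With RNA sample as a random block they were 0 and 0, 0 and 1, and 1 and 1, and at an unadjusted p under 0.05 in limma the first then had 2 higher and 3 lower and the second 1 higher. With duplicates averaged they were 0 and 1, 0 and 2, and 1 and 2, and at an unadjusted p under 0.05 there were 2 higher genes in the first and 3 in the second. With array weights, which gave lame R2_1 and R2_2 weights of 0.1129 and 0.0797, they were 6 and 7 in the first, 6 higher in the second, and 8 and 7 in the third. With lame R1 alone they were 5 and 7, 6 higher in the second and 8 higher in the third. With lame R2 alone 4, 7 and 7 genes were higher in the 3 comparisons. Without a filter on dim probes (59 genes), 2 were lower in the first and 2 and 2 called in the third, and the median of the first was 0.75. Quantile normalization gave 2 lower in the first. Normexp gave 2 and 5 in the second (median -0.29) and 2 higher in the third. The mean of a gene's probes gave 2 higher in the second and 2 in the third, and every probe on its own 2 higher in the second. Calls over all 15137 genes moved too: in the 3 comparisons 7311, 8473 and 9437 were called with array weights, 7166, 8379 and 8748 with lame R1 alone, 6997, 8788 and 7149 with lame R2 alone, 167, 533 and 375 with duplicates averaged, and 23, 203 and 96 with RNA sample as a random block, against 1455, 3522 and 2830. With slide as a replicate block, 2 were higher in the third, and 15 of the 18 calls remained.

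Leaving out each array in turn gave 1 to 3 higher and 1 to 5 lower in the first comparison, 1 to 3 and 2 to 4 in the second, and 2 to 5 and 2 to 5 in the third. The lowest counts, where below those with all arrays, came without a normal array, which leaves 1 array whose spread is assumed to be that of the other groups. Signal limits these results: 134 of 168 probes never passed the filter, and 20 of the 59 genes were measured. The cause of the other shifts was not tested.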
